A study of Mus musculus with 2 samples.

Results

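The genes described here copy DNA and divide the cell: 38 genes of the cell cycle and of DNA replication. They were chosen by name and by no cut on their values, though earlier results of these data were known. The array names 18193 genes on a probeset of their own, and 11706 of these were measured above the filter on low signals, among them 35 of the 38. Male C57BL/6J mice aged 4 months ate a semisynthetic diet with 20% fat by weight for 4 weeks. In the control diet all of the fat was flaxseed oil, rich in the plant n-3 fatty acid ALA. In the EPA&DHA diet 44% of the lipids gave way to a concentrate with 6% EPA and 51% DHA, the long chain n-3 fatty acids of fish. The labels name no transgene, targeted allele or drug for either group. The control pool held RNA of 10 of the 12 mice fed and the EPA&DHA pool that of 11 of 12, and 1 Affymetrix array was run per pool. The labels describe whole small intestine, whereas the methods describe scraped epithelial cells. With 1 array per diet nothing was replicated, so the spread among mice is unknown and values are given without tests or errors across samples.

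The lining of the small intestine is renewed from crypts, pockets at the base of the villi in which stem cells and their daughters divide before they move up and stop cycling. A dividing cell first licenses its replication origins by loading the ring-shaped MCM helicase, then copies its DNA in S phase, and in mitosis pulls the copies apart on a spindle under the control of cyclin-dependent and Aurora kinases. Because villus cells do not divide, RNA of these genes comes mainly from crypts, and lymphoid follicles in the gut wall also hold dividing cells. In pooled tissue RNA, fewer cells of a type and less RNA per cell cannot be told apart.

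Most of these genes had slightly higher signals on EPA&DHA, but few lay far from the control diet. Their median log2 ratio of EPA&DHA over control was 0.14, against -0.05 over all 11706 genes. Of the 35 measured genes 28 had a log2 ratio above 0, against 43.6% of all genes, and 7 lay below 0, against 56.4%. At least 1.5-fold higher were 2 genes, Aurkb and Tpx2, against 6.18% of all genes, and 0 were at least 1.5-fold lower, against 7.94%. Thus the share past 1.5-fold was near the background, and it was the bulk of small ratios that lay to one side. Less than 1.2-fold apart were 25 of the 35, against 56.6% of all genes. Each gene is read here from its brightest probeset that names this gene alone, where a probeset is a set of short probes for 1 transcript. The members were not replicates of the diet, since all were read from the same 2 pools.

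To judge single genes, the spread of the log2 ratios of the 500 probesets nearest in signal was taken as a robust SD, called the local SD, which ran from 0.24 to 0.52 for these genes. Higher by more than 1 local SD were 10 of the 35, against 13.8% of all genes, and 0 were lower by more than 1 local SD, against 19.1%. These were Cdc6, Mcm5, Mcm7 and Tk1 among the genes of S phase, and Ccnb2, Aurkb, Tpx2, Bub1, Mad2l1 and Cdc20 among those of mitosis. Past 2 local SDs in either direction were 2 of the 35, Aurkb and Cdc20, against 825 of all 11706 genes. In both of these genes the brightest probeset is of the kind that may bind other sequences, and for Cdc20 another probeset had the opposite sign.

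**Figure D1:**
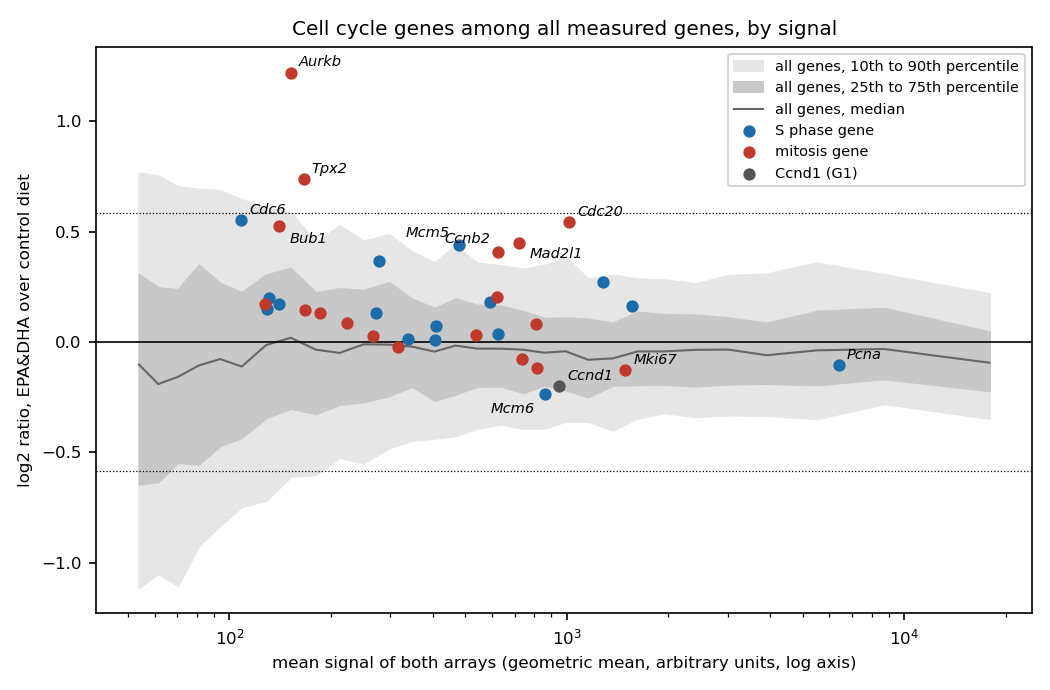
Log2 ratio, EPA&DHA over control (y axis) against the mean signal of both arrays (x axis, log scale) for 35 cell cycle genes, over bands from the 10th to the 90th and the 25th to the 75th percentile of all 11706 genes at each signal. Of the 35 genes 28 lie above 0, and Aurkb and Tpx2 lie above the dotted line at 1.5-fold.

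The height of the ratios differed with signal. Kept probesets were placed in 4 equal bins by mean signal, of which the dimmest held 1 member, Cdc6. In the next bin, with mean signals from 112.5 to 311.9, all 13 members had a log2 ratio above 0 and the median was 0.17. In the bin above it, 12 of 17 were above 0 with a median of 0.03. In the brightest bin, 2 of 4 were above 0, also with a median of 0.03. Over all genes the medians of these 3 bins were -0.02, -0.03 and -0.05, and 48.1%, 45.1% and 40.7% lay above 0. When only probesets with a mean signal of at least 200 were kept, 18 of 25 members lay above 0 and their median was 0.07, against -0.04 for all genes.

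The genes fall into 18 that act from late G1 through S phase, 19 that act from G2 to the end of mitosis, and Ccnd1, the cyclin that drives cells through G1. Ccna2, which acts in S phase as well as G2, was placed with the mitosis genes. The groups stood at nearly the same height. Median log2 ratios were 0.16 over 16 measured S phase genes and 0.14 over 18 measured mitosis genes, a difference of 0.02. Above 0 were 14 of the 16 and 14 of the 18. The mitosis genes spread more widely, with an SD across genes of 0.35 against 0.20. With an average over all kept probesets of a gene instead, the medians were 0.29 for S phase and 0.15 for mitosis, a difference of 0.14, against -0.04 over all genes. The SDs across genes were then 0.27 for S phase and 0.36 for mitosis, so the spreads lay closer together. The gap between the medians thus depended on which probesets were read, and no replicate exists to set it against.

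The groups differ in the control sequences that precede them, which the choice of genes did not use. E2F factors switch on genes of S phase through sites rich in G and C, and the repressor and activator complexes of late cell cycle genes bind a short element called the CHR. In RefSeq promoters of build GRCm38.p6, from 250 bases before to 50 after the annotated start, E2F motifs (TTTGGCGC, TTTCGCGC or TTTCCCGC on either strand) were found in 7 of 16 S phase genes with a promoter entry and in 1 of 15 mitosis genes, against 1.84% of all 32851 promoters. The 7 were Cdc6, Cdt1, Mcm3, Mcm5, Mcm6, Mcm7 and Pola1, with log2 ratios from -0.23 to 0.55, and the mitosis gene was Cdk1. Mcm7 has more than 1 promoter entry and was counted where any held a match. CHR motifs (TTTGAA or TTTAAA on either strand) were found in 13 of 15 mitosis genes and in 5 of 16 S phase genes, against 27.6% of all promoters, and the mitosis genes without one were Bub1 and Mad2l1. The CCAAT box, bound by NF-Y, was found in 13 of 15 and 10 of 16, against 37.4%. Some E2F matches overlap each other, being read on both strands. Among the further genes on the lists below, E2F motifs were found in 8 of 30 replication genes and 3 of 44 mitosis genes, and CHR motifs in 9 of 30 and 31 of 44. No entry was matched for Mcm4, Gins1, Ccnd1, Ccna2, Aurkb, Tpx2 and Kif20a. A match describes letters in a window and is not a shown binding site.

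The stretches of 160 bases before the start sites of 2 helicase genes and 2 mitosis genes show the difference. They are written 5′ to 3′ on the strand of the gene, with E2F and CHR matches in capitals.
Mcm5, chr8:75109349-75109508, plus strand: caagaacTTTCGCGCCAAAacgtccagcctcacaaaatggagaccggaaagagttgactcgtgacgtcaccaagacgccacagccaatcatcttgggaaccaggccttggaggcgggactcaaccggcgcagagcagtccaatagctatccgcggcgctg
Mcm6, chr1:128359706-128359865, minus strand: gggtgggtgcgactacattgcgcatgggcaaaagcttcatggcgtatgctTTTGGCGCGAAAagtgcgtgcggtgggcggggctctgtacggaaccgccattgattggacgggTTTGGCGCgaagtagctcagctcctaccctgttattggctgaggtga
Cdk1, chr10:69352913-69353072, minus strand: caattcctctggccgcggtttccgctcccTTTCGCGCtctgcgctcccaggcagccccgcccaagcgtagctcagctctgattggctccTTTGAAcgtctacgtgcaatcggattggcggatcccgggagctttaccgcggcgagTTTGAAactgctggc
Cdc20, chr4:118437344-118437503, minus strand: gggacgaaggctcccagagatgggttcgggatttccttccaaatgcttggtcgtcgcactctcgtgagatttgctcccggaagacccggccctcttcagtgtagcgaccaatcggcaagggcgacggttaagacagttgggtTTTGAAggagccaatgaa
In Mcm5 and Mcm6 the capitals are E2F matches, of which the first block in each is a pair that overlaps. Mcm5 also holds a CHR match at position -221 from the start, ahead of the printed stretch. In Cdk1 the first block is an E2F match and the other blocks are CHR matches, and in Cdc20 the only block is a CHR match. Genes with the same kind of match differed in ratio. Mcm5 stood at 0.44 and Mcm6 at -0.23 on the log2 scale, and Cdc20 at 0.54 and Cdk1 at 0.03.

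Licensing of origins needs Cdc6 and Cdt1, which load the MCM ring. Cdc6 had a signal of 89.1 with control and 130.6 with EPA&DHA, 1.47-fold higher, on its only kept probeset. That log2 ratio of 0.55 stands beside a local SD of 0.52, the highest among the members. Cdt1 had signals of 1476 and 1656, a log2 ratio of 0.17, and a dimmer probeset stood at -0.17. Gins1, part of the complex that joins the helicase at the fork, had signals of 122.0 and 140.2 and a log2 ratio of 0.20.

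The MCM subunits form 1 ring, yet their brightest probesets did not stand alike. Mcm5 was highest, with signals of 412 with control and 559 with EPA&DHA and a log2 ratio of 0.44, and its other kept probeset stood at 0.52. Mcm7 had signals of 1166 and 1408 and a log2 ratio of 0.27. Mcm3 stood at 0.13, Mcm2 at 0.03 and Mcm4 at 0.01. Mcm6 was lowest, with signals of 932 with control and 792 with EPA&DHA and a log2 ratio of -0.23, which is less than its local SD of 0.26. For several subunits other probesets gave another answer. Mcm6 had a dimmer probeset at 0.81, Mcm4 one at 0.66, and the 4 probesets of Mcm7 ran from -0.12 to 0.98. No subunit was at least 1.5-fold apart on its brightest probeset.

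At the fork itself, Pcna, the sliding clamp that holds the DNA polymerases, had signals of 6620 with control and 6162 with EPA&DHA. Its log2 ratio of -0.10 lay within a local SD of 0.25. Pola1, the catalytic subunit of the polymerase that begins each strand, stood at 0.15. Prim1, the primase that lays down its RNA primer, had signals of 336 and 339 on the brightest probeset, a log2 ratio of 0.01. The other probeset of Prim1 had 86.9 with control and 338.9 with EPA&DHA, a log2 ratio of 1.96. The ratio of Prim1 therefore depended on the probeset read.

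Nucleotides for DNA synthesis are supplied by ribonucleotide reductase and by enzymes of thymidylate. Rrm1 and Rrm2, the subunits of the reductase, had log2 ratios of 0.07 and 0.18, and the kept probesets of Rrm2 all lay between 0.18 and 0.34. Tk1, the thymidine kinase of dividing cells, had signals of 244 with control and 315 with EPA&DHA and a log2 ratio of 0.37, just past its local SD of 0.36. For thymidylate synthase, Tyms, the probesets that name it alone were under the filter. The probeset it shares with the pseudogene Tyms-ps had 283 and 256, a log2 ratio of -0.14, and entered no count.

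Entry into S phase is set by D and E cyclins and by E2F factors. Ccnd1 had signals of 1015 with control and 884 with EPA&DHA, a log2 ratio of -0.20, while its other kept probesets stood at 0.03 and 0.04. Ccne1 stood at 0.17 and 0.40 on its kept probesets. All 3 probesets of E2f1 were under the filter, with signals from 31.1 to 38.2 with control, and the EPA&DHA array gave 68.5, 52.5 and 10.1. These dim values went both ways and gave E2f1 no usable ratio. For Ccnb1 the annotation table used here named no probeset, so its signal was not analysed, and it entered only the promoter counts.

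**Figure D2:**
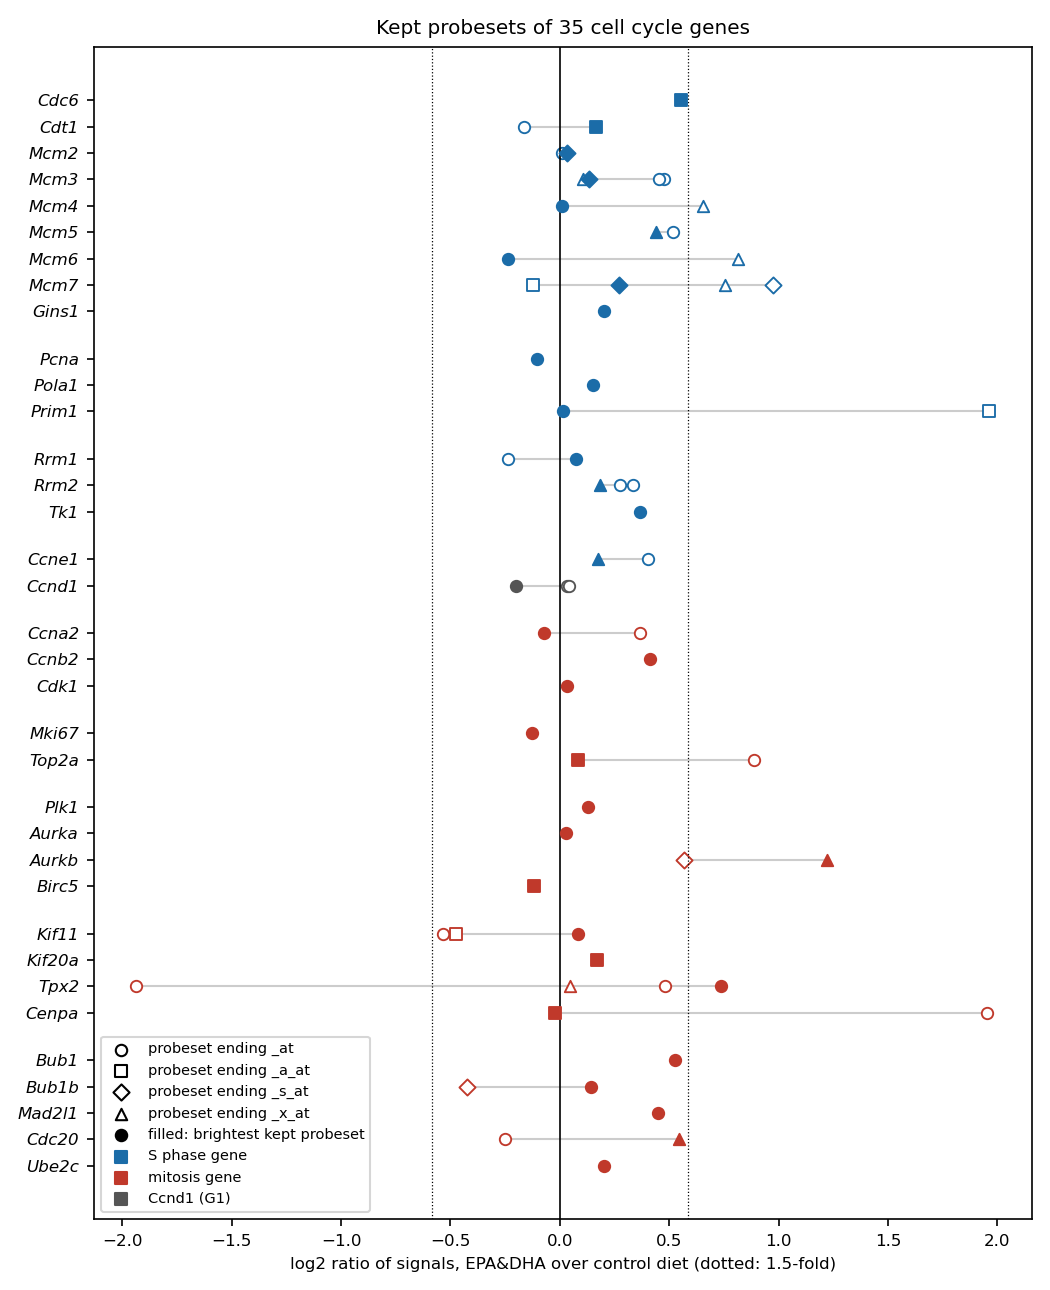
Log2 ratio, EPA&DHA over control (x axis), of every kept probeset of 35 cell cycle genes, in groups by role, with the brightest probeset of each gene filled and the kind of probeset shown by the marker. Most brightest probesets lie between 0 and 0.55, and the other probesets of Prim1, Cenpa and Tpx2 lie furthest from them.

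Of the cyclins and the kinase of mitosis, Ccnb2 had signals of 544 with control and 722 with EPA&DHA, a log2 ratio of 0.41, with a local SD of 0.28. Its kinase partner Cdk1 had 534 and 546 and a log2 ratio of 0.03. Ccna2, the cyclin of S phase and G2, stood at -0.07 on its brightest probeset and at 0.37 on the next. The cyclins and the kinase that they activate were therefore not higher to the same degree.

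The common markers of dividing cells gave little difference. Mki67, which encodes the Ki-67 antigen used to stain cycling cells, had signals of 1555 with control and 1425 with EPA&DHA, a log2 ratio of -0.13, with a local SD of 0.25. Top2a, the topoisomerase that untangles chromosomes, had 787 and 834, a log2 ratio of 0.08. A dimmer probeset of Top2a had 115 and 212, a log2 ratio of 0.89. Birc5 (survivin), of the chromosomal passenger complex, stood at -0.12.

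Aurkb, the kinase of the chromosomal passenger complex, had the highest ratio of all members on its brightest probeset. Its signals were 99.4 with control and 231.6 with EPA&DHA, 2.33-fold higher, a log2 ratio of 1.22 with a local SD of 0.49. That probeset ends in _x_at, a kind described below, and the other kept probeset of Aurkb had 80.9 and 120.0, a log2 ratio of 0.57. It was the 1 member at least 2-fold higher, against 1.56% of all genes, and 0 members were at least 2-fold lower, against 2.24%. The related kinase Aurka, of the spindle poles, had 264 and 269, a log2 ratio of 0.03, and Plk1, a kinase of mitotic entry, stood at 0.13.

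Tpx2, which activates Aurka on the spindle, had signals of 128 with control and 214 with EPA&DHA, a log2 ratio of 0.74. Its 4 kept probesets stood at 0.74, 0.48, 0.04 and -1.94 and averaged -0.17, so that the sign of Tpx2 changed with the probesets read. The lowest had signals of 117.0 with control and 30.6 with EPA&DHA, and passed the filter only through the control array. The negative mean rested on that probeset. The motor Kif11, which pushes the spindle poles apart, stood at 0.08 on its brightest probeset and at -0.48 and -0.53 on the others. Kif20a, a motor of cell division, stood at 0.17. Cenpa, the histone that marks centromeres, had signals of 319 and 314 on its brightest probeset, a log2 ratio of -0.02. A dim probeset of Cenpa had 31.1 with control and 120.6 with EPA&DHA, a log2 ratio of 1.95, and passed the filter only through the EPA&DHA array.

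Genes of the spindle checkpoint and of the exit from mitosis had a median of 0.45 over 5 genes on their brightest probesets, with all 5 above 0. That was the highest of the roles with at least 3 measured genes, but the rank was lost with other probesets. With the mean of kept probesets the median was 0.20 with 4 of 5 above 0, under 0.29 for origin licensing and 0.26 for nucleotide supply, and without _x_at probesets it was 0.20, under 0.34 for nucleotide supply. Over the 13 other mitosis genes the median on brightest probesets was 0.08. Mad2l1, which holds back anaphase until chromosomes are attached, had signals of 618 with control and 844 with EPA&DHA, a log2 ratio of 0.45, with a local SD of 0.28. Bub1, a checkpoint kinase, had 117 and 168, a log2 ratio of 0.53. Cdc20, which the checkpoint restrains and which activates the anaphase promoting complex, had 838 and 1223, a log2 ratio of 0.54, with a local SD of 0.24. The next probeset of Cdc20 had 652 and 548, a log2 ratio of -0.25, and their mean was 0.15. Ube2c, which passes ubiquitin on for this complex, stood at 0.20. Bub1b stood at 0.14 on its brightest probeset and at -0.43 on a dimmer one.

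Repeated probesets of a gene showed how far readings of the same gene differed. Of the 64 kept probesets of members 49 had a log2 ratio above 0, against 45.6% of all kept probesets, 9 were at least 1.5-fold higher, against 8.06%, and 1 was at least 1.5-fold lower, against 8.89%. The 9 include the dim Cenpa probeset, which passed the filter only through the EPA&DHA array. The lower one, of Tpx2, passed it only through the control array. Of the 20 members with more than 1 kept probeset, 9 had all of them on the same side of 0, and in all 9 that side was above 0. This is 45.0% of the 20, against 45.6% of all 5328 such genes, of which 1013 lay wholly above 0 and 1418 wholly below. The range between the lowest and the highest probeset of a member had a median of 0.59, several times the median ratio of 0.14. Over all 5328 such genes the median range was 0.44. Genes with all kept probesets above 0 were Mcm2, Mcm3, Mcm4, Mcm5, Prim1, Rrm2, Ccne1, Top2a and Aurkb.

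The ratios differed by kind of probeset. Names ending in _x_at mark probesets with probes that may also bind unrelated sequences, and names ending in _s_at mark probes shared by several transcripts. All 10 kept _x_at probesets of members had log2 ratios above 0, from 0.04 to 1.22, with a median of 0.49, and 4 of them were at least 1.5-fold higher. Of all 1592 kept _x_at probesets 53.5% lay above 0. The 39 members' probesets with the plain ending _at had a median of 0.13, and 29 lay above 0, against 44.8% of all plain ones. Over the whole array 14.6% of 1592 kept _x_at probesets were at least 1.5-fold higher, against 7.82% of 17795 plain ones, and their medians were 0.04 and -0.05. In 10 members with both an _x_at and another kept probeset the _x_at value was higher in 6, by a median of 0.33 over the 10, against 60.2% of 911 such genes on the array and a median of 0.12. The share in which the _x_at value was higher was thus that of the array. Without any _x_at probeset the median of the members was 0.13 with 27 of 35 above 0, and Tpx2 was then the 1 member at least 1.5-fold higher. The part of probe binding in the ratios was not tested beyond these values.

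**Figure D3:**
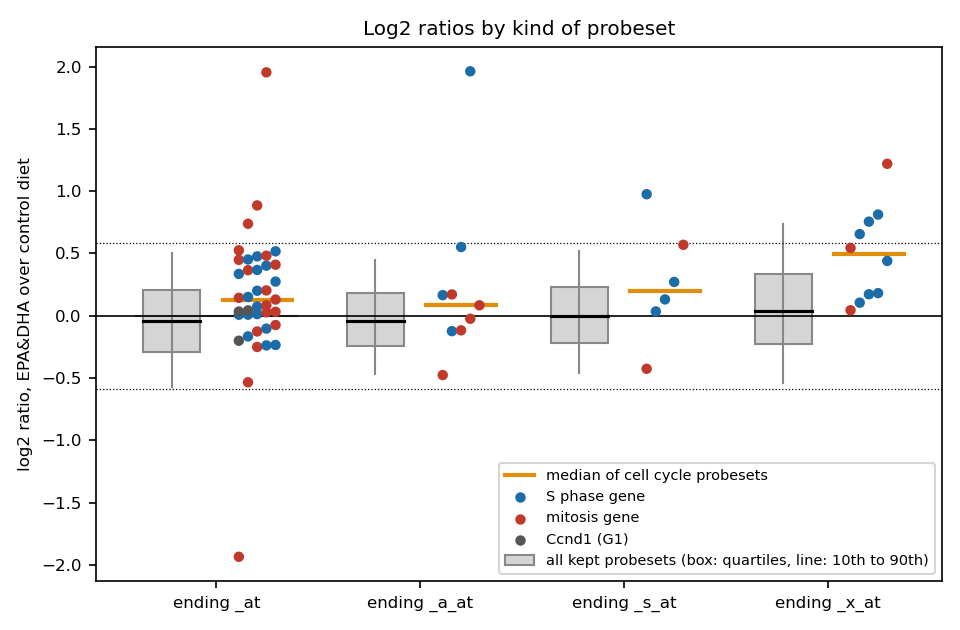
Log2 ratio, EPA&DHA over control (y axis) for members' probesets (points, with an orange bar at the median) beside all kept probesets (grey boxes), by the ending of the probeset name (x axis). All 10 members' probesets ending in _x_at lie above 0, and the members' median lies above that of all probesets for each ending.

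Further genes of the same processes, listed by role from general knowledge, stood at a like height. Of 36 measured replication genes 26 had a log2 ratio above 0, with a median of 0.21, and 5 lay at least 1.5-fold up and 3 at least 1.5-fold down. Over all genes 43.6% lay above 0, 6.18% were at least 1.5-fold higher and 7.94% lower. The highest was Uhrf1, which keeps up DNA methylation behind the fork, with signals of 147 with control and 280 with EPA&DHA. Prim2, Ung, Chaf1b and Tipin were the others, with log2 ratios of 0.88, 0.85, 0.73 and 0.61. On the lower side were Gins3 at -0.91, Orc1, a subunit of the origin recognition complex, at -0.62 and Rfc1, of the clamp loader, at -0.61.

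Of 48 measured further mitosis genes 31 lay above 0, with a median of 0.15, and 8 lay at least 1.5-fold up, against 6.18% of all genes, and 2 at least 1.5-fold down, against 7.94%. Ndc80, an outer kinetochore protein, had the highest ratio, but its signals of 27.2 with control and 100.1 with EPA&DHA were dim. Cenph, also of the kinetochore, had 45.6 and 113.5, and the checkpoint kinase Ttk had 60.8 and 123.9. Cenpe, a kinetochore motor, had 148 and 292, a log2 ratio of 0.98, and Ect2, needed for the final cut between daughter cells, had 363 and 574, a log2 ratio of 0.66. Kif18a and Kif2c, motors that shorten microtubules, stood at 0.89 and 0.61, and Kif18a had dim signals of 37.8 and 69.8. Ndc80, Cenph and Kif18a had control signals under 50.8, the lowest mean signal kept. They passed the filter only through the EPA&DHA array, so their place among the 8 is no support for a rise. Espl1, the protease that releases sister chromatids, was lower at -0.81. The brightest probesets of Cks1b and Prc1, at 0.89 and -0.76, also counted, but their other kept probesets lay on the opposite side of 0. Other kinetochore genes did not stand as high on their brightest probesets, with Nuf2 at -0.05, Cenpf at 0.12, Spc25 at 0.39 and Spc24 at 0.48. The other kept probeset of Spc25 stood at 1.51, and these genes were named after their values were seen.

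The regulators of these genes were mixed. Of 18 measured cell cycle transcription factors 1 was at least 1.5-fold higher, against 6.18% of all genes, and 0 lower, against 7.94%. Their median was 0.14, and the higher one was E2f7, a repressor of E2F targets, at 0.73. Myc, which promotes growth and cycling, stood at 0.44, while Foxm1 and Mybl2, activators of late cell cycle genes, stood at -0.08 and -0.31. Of 10 measured G1 cyclins and kinases 0 were at least 1.5-fold apart in either direction, against the same 6.18% and 7.94%, and their median was 0.13.

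Of 9 measured inhibitors of cyclin-dependent kinases 1 was at least 1.5-fold higher, against 6.18% of all genes, and 0 lower, against 7.94%. Their median was 0.07. The higher one was Wee1, the kinase that holds Cdk1 inactive and whose level also follows the circadian clock, with signals of 693 with control and 1196 with EPA&DHA. Its log2 ratio of 0.79 stands beside a local SD of 0.26, and its other kept probeset stood at 0.53. Cdkn1a (p21) had 9632 and 7740, a log2 ratio of -0.32, and its other kept probeset stood at -0.21. Cdkn1b (p27) had 785 and 1075, a log2 ratio of 0.45. The inhibitors p21 and p27 thus lay on opposite sides of 0.

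Markers of the cell types that the tissue could hold stood on both sides of 0 beside the cell cycle genes. Markers of stem cells and the crypt base had a median of 0.07 over 12 measured genes. Of these 3 were at least 1.5-fold up, against 6.18% of all genes, and 1 at least 1.5-fold down, against 7.94%. Not all 3 had a control signal above 50.8, the lowest mean signal kept. Olfm4, a crypt base marker, had signals of 3587 with control and 5903 with EPA&DHA, while Prom1 stood at -0.14. The summed signal of the list was 8645 with control and 10605 with EPA&DHA, and without Olfm4 it was 5058 and 4701, so that the higher sum rested on Olfm4. Absorptive enterocytes, which do not divide, had a median of -0.10 over 17 genes, led by Apoa1 and Fabp1, and summed signals of 524430 and 464895, so their defining markers were present on both arrays. Paneth cells had a median of -0.11 over 5 measured genes of 9 listed.

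Of 12 measured B and plasma cell genes 8 were at least 1.5-fold lower, against 7.94% of all genes, and 0 higher, against 6.18%. Their median was -0.73, although Jchain of plasma cells stood at 0.37 and the summed signal was 14456 with control and 16730 with EPA&DHA. Without Jchain the sum was 2948 and 1870. T cell markers had a median of 0.09 over 8 genes and summed signals of 1810 on each diet. Smooth muscle and fibroblast markers had a median of -0.41 over 7 genes, all below 0. All 11 measured genes of the exocrine pancreas were at least 1.5-fold higher, against 6.18% of all genes, with a median of 1.78 and summed signals of 6611 and 18300. None of the listed markers had a signal of 0. The part of these cell types in the ratios of the cell cycle genes was not tested.

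**Figure D4:**
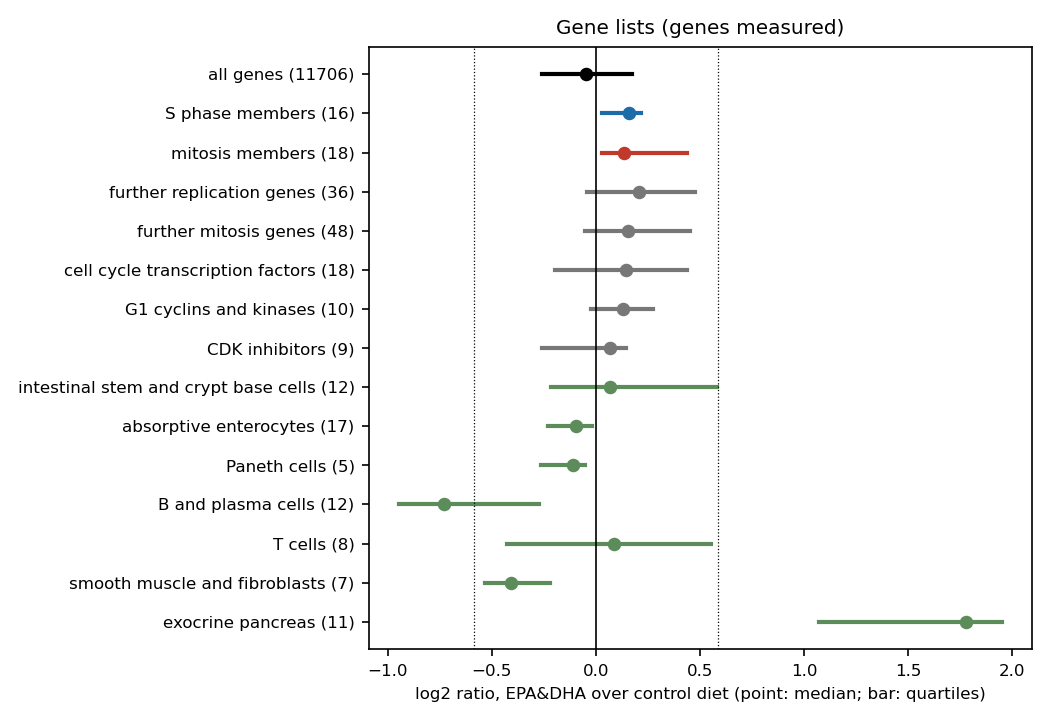
Median log2 ratio, EPA&DHA over control (points) with the quartiles over genes (bars) for all genes, the S phase and mitosis members, further cell cycle lists and cell type markers, with the number of measured genes in brackets. The medians of both member groups and of the replication and mitosis lists lie between 0.14 and 0.21, above -0.05 for all genes, while B and plasma cells lie at -0.73 and the exocrine pancreas at 1.78.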

How the data were processed

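For each diet the authors ran 1 MOE430_2 array of pooled intestinal RNA and obtained signals with MAS 5.0 (full version not stated). The deposited intensity values are linear signals in arbitrary units, and their 2% trimmed mean was 500.0 on both arrays. Of 45037 probesets left after 64 control probesets, 34945 named 1 gene, 932 several and 9160 none in the platform annotation, with symbols updated through gene identifiers to RefSeq. Probe sequences and detection calls were not used.

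After scaling to a common trimmed mean, ratios of EPA&DHA to control were put on the log2 scale. Probesets in the top 54% by mean log2 signal were kept (24320, mean signal at least 50.8). The share equals that which the methods give as expressed. A gene took its brightest kept probeset naming it alone. The local SD was the scaled median absolute deviation over the 500 nearest probesets. All 38 members were named, and of further pathway genes those at least 1.5-fold apart with all kept probesets on one side, plus Cdkn1a, Cdkn1b, Myc, Foxm1 and Mybl2. Of cell type markers, those named were among the 2 brightest of a list. Members and lists were chosen with earlier results of these data known. Promoter sequences came from RefSeq. Steps were tested on simulated data, with shifts far larger than most ratios here and the same shift in every probeset of a gene. That does not test small ratios or the choice of probeset. The number of arrays limits the precision. Python 3.11.15, numpy 2.4.6, pandas 2.3.3, scipy 1.17.1, statsmodels 0.14.6 and matplotlib 3.10.9 were used.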

Additional observations from a re-analysis of the deposited data

How the results depend on the processing

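Alternatives were the mean of kept probesets, unique probesets (plain _at names) where a gene has one, no filter, a mean signal of at least 200, values as deposited, median centring, quantile normalization, a loess correction with span 0.3 and an offset of 50. Where a plain one was kept, the unique setting passed over names ending in _a_at as well as _s_at and _x_at. Leaving out _x_at probesets was chosen after seeing the data. Over all of these the median of the members lay between 0.07 and 0.20 and was above that of all genes each time, by 0.11 to 0.24. The S phase median lay between 0.10 and 0.29 and the mitosis median between 0.06 and 0.17. With the mean of kept probesets the S phase median was 0.29, its gap to mitosis was 0.14, and Tpx2 turned to -0.17. That turn rested on the Tpx2 probeset that passed the filter only through the control array. The number of members at least 1.5-fold higher was 4 with unique probesets preferred (Cenpa, Top2a, Tpx2 and Aurkb, which has no plain probeset and kept its _x_at value), 0 with a mean signal of at least 200, 1 with an offset of 50 and 1 without _x_at probesets. Over all genes the shares at least 1.5-fold higher under these settings were 6.65%, 3.82%, 3.49% and 6.14%. In the count of 4, Cenpa and Top2a were read from dimmer plain probesets in place of their brightest ones, which end in _a_at. The plain probeset of Cenpa passed the filter only through the EPA&DHA array. Without a filter 1 member, Tyms, was at least 1.5-fold lower, on a dim probeset, against 19.5% of all genes. For the shifts with the probesets read, the cause was not tested. Aurkb, Birc5, Cdc6, Kif20a and Mcm7, 5 of 35, had no plain probeset. Quantile, loess and median scaling each added Cdc6 to the members at least 1.5-fold higher, which made 3, against 6.92%, 7.14% and 7.02% of all genes. Of 340 values of single members under these alternatives 327 stayed within 1 local SD of the value given above. That count is no measure of stability, since filter, scaling and offset settings reread the same probeset and 15 members had only 1 kept. All larger moves came from reading other probesets: 6 and the reversed Tpx2 with the mean, 4 with unique probesets and 2 without _x_at probesets. The sign turned in 13 of the 340, in 9 members: Bub1b, Ccna2, Cdt1, Cenpa, Kif11, Mcm6, Rrm1 and Tpx2 with the mean of kept probesets, Cdc20, Cdt1 and Cenpa with unique probesets, Cdc20 without _x_at probesets, and Cenpa with median centring. No paired analysis was possible because each diet has 1 array. Dim signals limit E2f1 and Tyms, and the lack of replicates limits every value.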

Other observations

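Outside the filter, 20 probesets of members that name them alone had mean signals under 50.8. Their log2 ratios ran from -3.43 to 1.43 with a median of -0.67, and 8 of 20 were above 0. All 20717 probesets under the filter had a median of -0.20, with 44.7% above 0. The lowest was a probeset of Cenpa with signals of 14.4 with control and 1.33 with EPA&DHA, so that the probesets of Cenpa ran from -3.43 to 1.95 while the brightest stood at -0.02. Apart from the alternative without a filter, no count above used these values, although those of E2f1 are printed.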
